A study of Mus musculus with 5 samples.

Results

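The 8 genes described here are inhibitory receptors of exhausted T cells other than PD-1, with regulators that accompany them: Tox, Lag3, Havcr2 (TIM-3), Tigit, Entpd1 (CD39), Lgals9 (galectin-9), Cd160 and Rgs16. They were taken as a list of names, set with earlier results of these data known, and all 8 had a row in each of 5 count matrices that together list 35870 genes. Their counts were followed in the barcodes of single-cell RNA sequencing (scRNA-Seq) from 3 reactions of tumor-draining lymph nodes (TDLNs) and 2 reactions of MC38 tumors. This was done in T cells and in every other cell class that marker genes could define.

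T cells that meet antigen for weeks in a tumor enter a state called exhaustion, in which they keep several inhibitory receptors on their surface and lose effector function step by step. TOX is the nuclear factor that establishes this state, downstream of calcium and NFAT signaling, while PD-1, LAG-3, TIM-3, TIGIT and CD160 are receptors that dampen the T cell when they meet their ligands. Several of these genes also work outside T cells: TIM-3 is carried by myeloid cells and dendritic cells, CD39 is an ectoenzyme of endothelium and myeloid cells that removes extracellular ATP, and galectin-9 is a widely made lectin that binds TIM-3.

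TDLNs came from male wild-type C57BL/6J mice of 8 to 10 weeks with TRAMP-C2, a transplantable prostate cancer line, and the tumors came from mice of the same strain with MC38, a colon cancer line, each implanted subcutaneously. Isotype antibodies or checkpoint inhibition (CPI, antibodies to PD-1 and CTLA4) were given on days 3, 6 and 9, and either vehicle or 20 mg/kg ABT-317, an inhibitor of the kinase JAK1, from day 12, which makes 4 treatments. Tissue was taken on day 15. The study's scRNA-Seq methods count these days from implantation for both models. For MC38, a figure legend of the study instead counts them from enrollment into treatment, once tumors had reached a set volume. Lymph node cells were not sorted, whereas tumor cells were sorted as live CD45+ and CD45- cells and mixed in equal parts. Mice of all treatments were pooled within a reaction, so a reaction is the unit of replication, and p-values measure the spread between reactions of pooled cells, which may be technical.

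Antibody rows of the TDLN matrices hold 0 counts, so lymph node cells could not be divided by treatment, whereas a key gives 1 hashtag per treatment in each MC38 reaction. TDLN reactions 1 and 2 held 62575 and 56511 barcodes with a median of 1905 and 1713 unique molecular identifiers (UMIs) each, and reaction 3 held 7050. Reaction 1 held more barcodes than the 60000 cells loaded, so a barcode need not be a single cell. The MC38 reactions held 37774 and 27582 barcodes, of which 33762 and 23332 passed the filters with a median of 8781.5 and 9998 UMIs. Pairs of reactions shared 3.84% to 8.70% of the barcodes of the smaller one, and no doublet caller was run. In TDLNs, 28107, 17224 and 3168 barcodes carried RNA of both T and B cells, so the T-like and B-like classes of the node were limited to barcodes free of the gating markers of the opposite lineage, which left out Ebf1 of the B cell list, plasma cell-like barcodes were allowed up to 1 gating UMI of another lineage, and reaction 3 gave no T or B cell class large enough to enter a test. A further 34006, 38324 and 3845 barcodes entered no class. The node classes are thus small parts of the libraries. The largest, CD8 T-like barcodes with under 3 Ccl5 UMIs, held 109 and 335 barcodes in reactions 1 and 2 (0.174% and 0.593% of those passing). CD4 T-like classes held 24 and 50 barcodes. The T-like classes of reactions 1 and 2 held the B cell list at 11.04 to 85.8 CPM (UMIs scaled to the gene UMIs of a class), from 1 of its 7 genes, against 8830 and 9202 CPM in B-like barcodes.

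In the MC38 reactions, 13430 and 9208 of the passing barcodes (39.8% and 39.5%) entered no class, at medians of 14707.5 and 21380.5 UMIs. CD8 T-like barcodes were 0.640% and 0.844% of those passing. The MC38 classes also differed in their treatment. Among barcodes with exactly 1 hashtag, the CPI hashtag was on 271 of 283 CD8 T-like barcodes (95.8%) and on 1416 of 1516 fibroblast-like barcodes, but on only 310 of 9051 macrophage-like barcodes with high C1q, of which 7647 (84.5%) carried the isotype hashtag. Class and treatment cannot be told apart in a comparison of classes over all barcodes. Values among barcodes with the CPI hashtag alone are therefore given for Tox, Tigit, Rgs16, Havcr2, Entpd1 and Lgals9, the genes with enough counts for a test there. That setting also leaves out barcodes with no hashtag or at least 2, so it changes more than the treatment. It kept 136 of 216 and 135 of 197 CD8 T-like barcodes. The part of the barcodes left out in any change was not tested. The isotype hashtag was called on 26608 of 37774 and 16731 of 27582 barcodes, more than any other hashtag, and 44.0% and 30.0% of the barcodes that passed the filters had at least 2 hashtags and entered no treatment. Only 5 of the 283 CD8 T-like barcodes carried the hashtag of CPI with ABT-317. By flow cytometry, another measure, the paper reports CD8+ T cell counts in MC38 tumors that did not differ between CPI with and without ABT-317. From scRNA-Seq of MC38 tumors, the paper also compares gene expression in CD8+ T cells between CPI with and without ABT-317. It gives T cell cluster frequencies by treatment as well. The gates and hashtag calls used here left too few T cells for such comparisons. The source of this difference from the paper was not tested. How many hashtag calls were wrong, for isotype or another treatment, was not tested.

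Antibodies of the MC38 panel recognized the products of 3 of the 8 genes, and their DNA tags, which were counted beside the RNA and carry the surface readout described with the proteins, are the following.
CD366 (TIM-3, Havcr2): attggcactcagatg
CD223 (LAG-3, Lag3): attccgtccctaagg
CD160 (Cd160): gcgtatgtcagtacc

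RefSeq promoters of GRCm38.p6, each of 300 bases around the transcription start, were available for 6 of the genes. The promoters of Tigit and Havcr2 are shown as those of a gene whose level was concentrated in T cells among the tested classes of the tumor and of one whose level over all barcodes was alike in CD8 T cells and macrophages. Capitals mark the NFAT core GGAAA and the RUNX motif TGTGGT on either strand, which occur in 61.3% and 16.8% of all 32851 promoters of this length. Tigit, at chr16:43664135-43664434 on the minus strand, held 2 and 1 matches, and Havcr2, at chr11:46454681-46454980 on the plus strand, held 0 and 1. The counts do not follow the T cell pattern: the Lgals9 promoter held 2 and 1 matches as Tigit did, that of Cd160 held 0 and 1, and those of Rgs16 and Entpd1 held none. A match describes the sequence and does not show binding.
Tigit promoter: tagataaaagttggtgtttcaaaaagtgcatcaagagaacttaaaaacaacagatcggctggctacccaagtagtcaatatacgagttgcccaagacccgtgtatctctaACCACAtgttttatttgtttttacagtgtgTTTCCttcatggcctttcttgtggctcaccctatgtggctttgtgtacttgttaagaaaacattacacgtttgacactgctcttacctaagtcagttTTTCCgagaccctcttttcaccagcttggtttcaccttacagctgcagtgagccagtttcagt
Havcr2 promoter: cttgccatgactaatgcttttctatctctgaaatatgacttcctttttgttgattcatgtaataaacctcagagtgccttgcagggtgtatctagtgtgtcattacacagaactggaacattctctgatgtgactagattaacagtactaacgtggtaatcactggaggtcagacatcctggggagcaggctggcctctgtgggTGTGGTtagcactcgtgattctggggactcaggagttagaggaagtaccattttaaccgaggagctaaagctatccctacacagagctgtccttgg

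In the MC38 tumor, over all barcodes and among the classes large enough to test, Tox, Tigit, Lag3 and Rgs16 were highest in T cells, and Havcr2, Entpd1 and Lgals9 were as high or higher in myeloid or endothelial cells. NK-like barcodes were too few to test and enter no such order. Among barcodes of the CPI hashtag alone, Rgs16 in T cells was not told from that in Ptprc-negative barcodes, in which no UMI of Ptprc, the gene of CD45, was counted, and Havcr2 was higher in CD8 T-like than in C1q-high macrophage-like barcodes. Of the 8 genes, 7 had enough counts for the test (edgeR, 8339 genes, 21 sums over class and reaction) and Cd160 did not. CD8 T-like sums held 5 of the 7 at a higher level than the mean of the other classes, a call made for 8.89% of all genes. In CD4 T-like sums 4 were higher (3.43% of all genes), in Treg-like sums 3 (4.63%) and in the remaining T-like sums 5 (8.37%). Outside T cells, 3 were higher in endothelial-like sums (19.0%) and 3 in C1q-high macrophage-like sums (22.1%), where the background was much larger. Among barcodes of the CPI hashtag alone, the C1q-high macrophage-like difference of Lgals9 turned from a log2 of 0.65 to -0.26 and that of Havcr2 was no longer called. In C1q-low macrophage-like sums 2 were higher (10.0%) and 1 was lower (1.80%), in neutrophil-like sums 1 was higher (4.41%), in fibroblast-like sums 1 was higher (26.8%) and 1, Entpd1, lower (13.8%; log2 -1.09, which turned to 0.28 with the CPI hashtag alone and to 0.041 with a stricter gate), in Ptprc-negative sums 2 were lower (19.9%), and in sums like mature regulatory dendritic cells (mreg DC-like) 0 of 7 were called (3.73%). The mreg DC-like class entered as 1 sum of 20 barcodes from reaction 1, which the fit assumes to vary like the others. The median log2 difference of the 7 genes was 3.1 in CD8 T-like sums against 0.21 over all genes, and 0.65 against 0.16 in C1q-high macrophage-like sums. Because Tox, Tigit, Lag3, Rgs16 and Havcr2 each had 0 UMIs in at least 1 of the other classes, the sizes of their log2 differences from the mean, and these medians, depend on the prior count.

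Tox, the transcription factor of the exhaustion program, is encoded at chr4:6686353-6991557 on the minus strand of GRCm38. By its mean over both reactions it was highest in Treg-like barcodes, at 239 and 218 CPM in reactions 1 and 2, and stood at 149 and 256 CPM in CD4 T-like and at 77.2 and 37.6 CPM in CD8 T-like barcodes. C1q-high macrophage-like barcodes held 0.934 and 0.733 CPM, and Tox was not detected in C1q-low macrophage-like, neutrophil-like or mreg DC-like barcodes. No T cell class overlapped with a macrophage-like, fibroblast-like, endothelial-like or Ptprc-negative class in either reaction. NK-like barcodes were too few to test. In reaction 2, 5 of isotype, 4 of CPI and 5 of CPI with ABT-317 held 3, 1 and 0 Tox UMIs. For isotype and CPI these were 132 and 217 CPM, above the CD8 T-like levels over all barcodes. In reaction 1, 2 of isotype and 3 of CPI held 1 and 1 (191 and 280 CPM), and 1 of CPI with ABT-317 held 0. CD8 T-like sums exceeded C1q-high macrophage-like sums 59.0-fold (log2 5.88 ± 0.48 SE, adjusted p = 2.2e-10, edgeR), in a comparison where 4 of 7 genes were higher against 15.9% of all genes and 2 lower against 14.5%, and fell 3.81-fold short of Treg-like sums (log2 -1.93 ± 0.46, adjusted p = 0.048). Calls between CD8 T-like and Treg-like sums were rare, at 0.432% of all genes in that direction. In reaction 2 the CD4 T-like level was the higher of the pair, and the Treg-like and CD4 T-like levels were not told apart (adjusted p = 0.95).

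Among barcodes of the CPI hashtag alone, the CD8 T-like excess in Tox was 26.5-fold (log2 4.73 ± 0.80, adjusted p = 8.1e-06, edgeR). It rests on 1 macrophage-like UMI in each reaction: CD8 T-like barcodes held 103 and 77.5 CPM (19 and 14 UMIs) and C1q-high macrophage-like barcodes 2.78 and 3.05 CPM, ratios of 37.2 and 25.4 with exact counting intervals of 5.91 to 1546 and 3.87 to 1075.

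Single barcodes gave the same order between Treg-like, CD8 T-like and macrophage-like barcodes. A Tox UMI was found in 46.2% and 33.3% of Treg-like and in 11.6% and 9.14% of CD8 T-like barcodes, against 0.263% and 0.319% of C1q-high macrophage-like barcodes, which should lack the transcript and were deeper (median 3466 and 4219.5 UMIs against 1288.5 and 1228 in CD8 T-like barcodes). At a fixed depth of 1000 UMIs, the CD8 T-like share was 8.95% and 6.87% and the macrophage-like share 0.0844% and 0.0767%, after leaving out 41 and 56 CD8 T-like barcodes that were too shallow. The log2 difference of CD8 T-like sums from the mean of the other classes, 5.65, was 3.28 without reaction 1, which also takes the mreg DC-like class out of the mean, and 4.73 without reaction 2. With 1 reaction left, these values are differences of mean log2 CPM with a prior count of 2, another estimator than the fit. The part of the estimator in the move was not tested.

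Tigit encodes a receptor of T and NK cells that competes with CD226 for nectin-family ligands, and lies at chr16:43648867-43664146 on the minus strand. Its levels were 130 and 206 CPM in Treg-like, 116 and 186 CPM in CD4 T-like and 48.0 and 87.7 CPM in CD8 T-like barcodes, while endothelial-like, neutrophil-like, C1q-low macrophage-like and mreg DC-like barcodes had 0 UMIs. The T cell classes and the other tested classes were separate in both reactions. NK-like barcodes, 8 and 15 in number, were too few to test. In reaction 2, 5 of isotype, 4 of CPI and 5 of CPI with ABT-317 held 2, 1 and 2 Tigit UMIs. These were 88.2, 217 and 95.4 CPM. CD8 T-like sums were 77.3-fold above C1q-high macrophage-like sums (log2 6.27 ± 0.44, adjusted p = 3.3e-11, edgeR), in which the gene had 0.779 and 0.733 CPM. They were also called above them among barcodes of the CPI hashtag alone (adjusted p = 2.1e-06, edgeR). The macrophage-like barcodes held 1 and 0 UMIs there, so no size is given. Among T cells, no neighboring classes in the order of levels were told apart. With a stricter gate, the CD4 T-like sums were no longer called for Tigit or Tox.

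Lag3, which encodes a CD4-related receptor for MHC class II (chr6:124904361-124911705, minus strand), was sparse. CD4 T-like barcodes held 4 and 2 UMIs (66.3 and 46.5 CPM), Treg-like barcodes 2 and 2, and CD8 T-like barcodes 8 and 10 (16.7 and 17.9 CPM). All 4 T cell classes were nonetheless higher in Lag3 than C1q-high macrophage-like barcodes, which had 1.74 and 1.41 CPM. The CD8 T-like difference was 9.79-fold (log2 3.29 ± 0.57, adjusted p = 5.5e-05, edgeR). Against the mean of the other classes, the CD8 T-like difference was 4.6 on the log2 scale with both reactions, 3.06 without reaction 1 and its mreg DC-like class and 3.61 without reaction 2, and it was not called with a stricter gate. The values without a reaction are again differences of mean log2 CPM, another estimator than the fit.

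Rgs16, at chr1:153740349-153745468 on the plus strand, encodes a GTPase-activating protein that shortens G protein signaling, including that of chemokine receptors. It reached 106 and 82.3 CPM in CD8 T-like, 99.5 and 302 CPM in CD4 T-like and 79.5 and 84.9 CPM in Treg-like barcodes. Like Tox, it also had UMIs in every large class outside T cells. Endothelial-like barcodes held 38.4 and 70.2 CPM and Ptprc-negative barcodes 18.4 and 19.2 CPM. CD8 T-like sums were 4.57-fold above Ptprc-negative sums (log2 2.19 ± 0.22, adjusted p = 4.0e-09, edgeR, with 25.4% of all genes called in that direction). The lowest of the large classes was C1q-high macrophage-like, at 7.23 and 7.21 CPM, 11.5-fold below CD8 T-like sums (log2 3.52 ± 0.24, adjusted p = 7.2e-12, edgeR). A C1q-low macrophage-like set of 39 and 53 barcodes had no Rgs16 UMI. NK-like barcodes were too few to test. In reaction 2, 5 of them with the hashtag of CPI with ABT-317 held 18 Rgs16 UMIs (859 CPM). There, 5 of isotype held 2 UMIs (88.2 CPM) and 4 of CPI held 0.

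The order of Rgs16 among classes was another one with barcodes of the CPI hashtag alone. Ptprc-negative barcodes then held 84.6 and 228 CPM, at medians of only 1060 and 2061 UMIs per barcode. CD8 T-like sums stood at a log2 of -0.15 ± 0.35 from them (adjusted p = 0.78, edgeR), so their 4.57-fold excess over all barcodes was not seen. CD4 T-like barcodes entered this fit as 1 sum, 23 barcodes of reaction 2, which is assumed to vary like the other classes and stood at -0.09 ± 0.66 (adjusted p = 0.96). Against the mean of the other classes, Rgs16 was no longer called in remaining T-like (log2 1.13 in place of 2.24) or endothelial-like sums (0.44 in place of 1.83), nor in the 1 CD4 T-like sum (1.54, in place of 3.47 from 2 sums). It was still called in CD8 T-like sums (1.47 in place of 2.64), which were 14.6-fold above C1q-high macrophage-like sums (adjusted p = 4.5e-06).

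**Figure D1:**
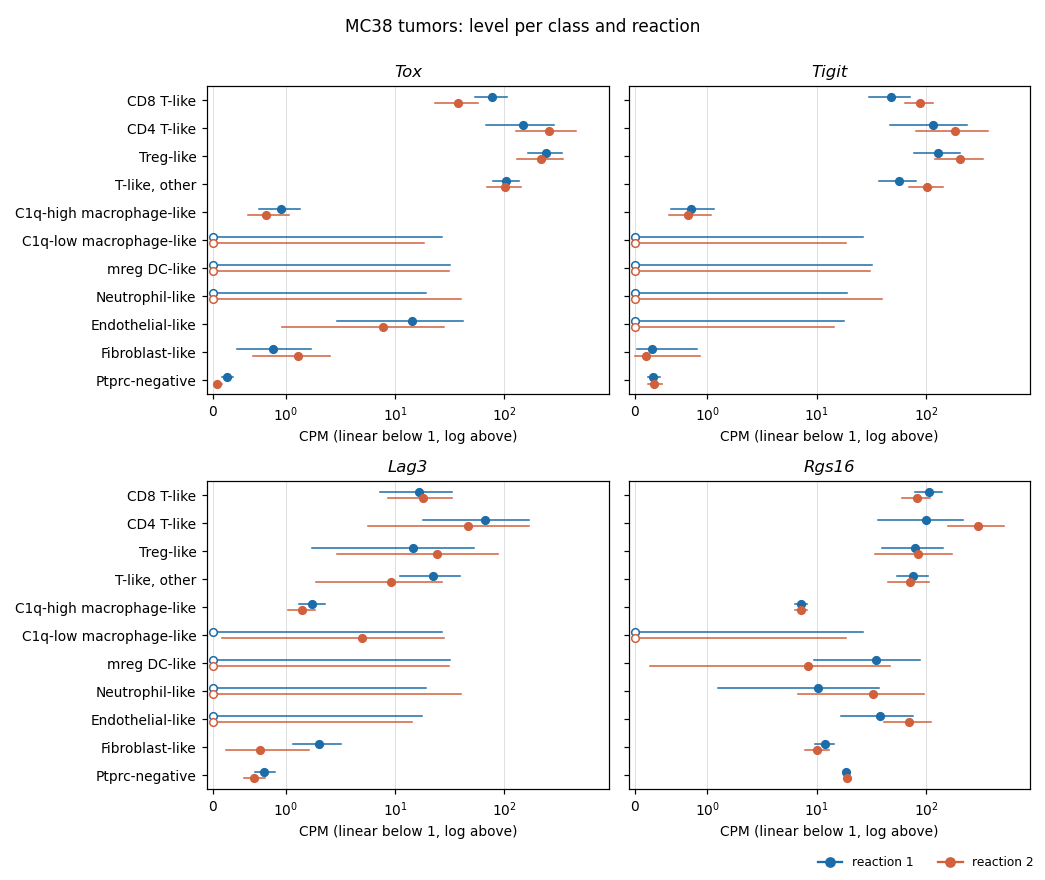
Tox, Tigit, Lag3 and Rgs16 in MC38 tumors, as CPM on an axis that is linear below 1 and logarithmic above, by cell class (vertical) and reaction, with exact Poisson 95% intervals and open circles for 0 UMIs. The T cell classes lie to the right, such as Tox at 239 and 218 CPM in Treg-like against 0.934 and 0.733 CPM in C1q-high macrophage-like barcodes, and Rgs16 at 106 and 82.3 CPM in CD8 T-like against 7.23 and 7.21 CPM in C1q-high macrophage-like barcodes.

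Havcr2 encodes TIM-3, a receptor of exhausted T cells and of myeloid cells (chr11:46454935-46481255, plus strand). Over all barcodes it stood at the same level in CD8 T-like barcodes (83.5 and 78.7 CPM, 40 and 44 UMIs) and in C1q-high macrophage-like barcodes (74.4 and 67.7 CPM, 2388 and 2401 UMIs), with a log2 difference of 0.01 ± 0.21 SE (adjusted p = 0.97, edgeR). C1q-low macrophage-like barcodes were at 65.0 and 80.3 CPM. Barcodes like type 1 conventional dendritic cells, 5 and 8 in number, were too few to test. Those of the isotype hashtag, 3 and 4 barcodes, held 4 and 2 Havcr2 UMIs (316 and 128 CPM), and 2 of CPI in reaction 2 held 0. In endothelial-like barcodes it was down at 9.60 and 3.90 CPM, and in Ptprc-negative barcodes at 2.78 and 1.59 CPM, 33.7-fold below the C1q-high macrophage-like level (adjusted p = 1.7e-22, with 38.0% of all genes called in that direction). Among CPI hashtag barcodes the latter difference was 6.53-fold (adjusted p = 0.0035, edgeR), on 2 and 3 Ptprc-negative UMIs. At 1000 UMIs per barcode, 9.91% and 9.66% of CD8 T-like and 8.16% and 7.65% of macrophage-like barcodes had a Havcr2 UMI.

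The likeness of Havcr2 in CD8 T-like and macrophage-like barcodes was not seen with barcodes of the CPI hashtag alone, an alternative chosen after seeing the data. There CD8 T-like barcodes held 119.6 and 149.6 CPM (22 and 27 UMIs) and C1q-high macrophage-like barcodes 27.8 and 21.3 CPM (10 and 7 UMIs). CD8 T-like sums were then 4.86-fold higher (log2 2.28 ± 0.49, adjusted p = 2.9e-04, edgeR). Of the 6 genes tested in that comparison, 4 were higher in CD8 T-like sums, against 12.1% of all genes, and Entpd1 alone was lower, against 13.4%. C1q-high macrophage-like sums were then no longer called for Havcr2 against the mean of the other classes (log2 0.70 in place of 3.08). Only 136 of 216 and 135 of 197 CD8 T-like barcodes entered here, since those with no hashtag or several were left out. Their part in the change was not tested.

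Entpd1, the gene of CD39 at chr19:40612366-40741602 on the plus strand, had its highest levels outside T cells. Endothelial-like barcodes held 178 and 219 CPM, neutrophil-like barcodes 243 and 152 CPM and C1q-high macrophage-like barcodes 131 and 122 CPM. No neighbors in this order, which is that of their means, differed beyond the spread. CD8 T-like barcodes were at 29.2 and 28.6 CPM (14 and 16 UMIs), 4.94-fold below the C1q-high macrophage-like level (log2 -2.30 ± 0.26, adjusted p = 3.4e-08, edgeR), and CPI hashtag barcodes alone gave 10.5-fold (adjusted p = 2.1e-07). Treg-like barcodes, at 57.8 and 72.8 CPM, were 2.45-fold below (adjusted p = 0.025, 7.33% of all genes). In GENCODE vM21, 3 gene models overlap Entpd1 on its own strand, and the effect on its counts was not tested.

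Lgals9 (chr11:78962974-78984946, minus strand) encodes galectin-9, a ligand of TIM-3, and was the most evenly spread of the 8 genes. Endothelial-like barcodes were highest, at 211 and 308 CPM, above C1q-high macrophage-like barcodes at 118 and 143 CPM by 1.77-fold (log2 0.82 ± 0.17, adjusted p = 2.6e-04, edgeR, with 19.7% of all genes called in that direction). Fibroblast-like barcodes followed at 92.5 and 116 CPM. CD8 T-like barcodes held 54.2 and 116 CPM, a pair that spans the fibroblast-like range. Their level was 1.72-fold below that of C1q-high macrophage-like sums over all barcodes (adjusted p = 6.7e-04) but did not differ among CPI hashtag barcodes (log2 -0.10 ± 0.38, adjusted p = 0.91), where macrophage-like barcodes held 63.9 and 73.2 CPM. The endothelial-like excess was 3.37-fold there (adjusted p = 2.5e-05, 11.8% of all genes). Fibroblast-like sums, called below C1q-high macrophage-like sums over all barcodes (adjusted p = 0.014, edgeR), stood above them with the CPI hashtag alone (log2 0.81 ± 0.26, adjusted p = 0.010). CD8 T-like sums then lay below fibroblast-like sums (log2 -0.91 ± 0.31, adjusted p = 0.015).

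**Figure D2:**
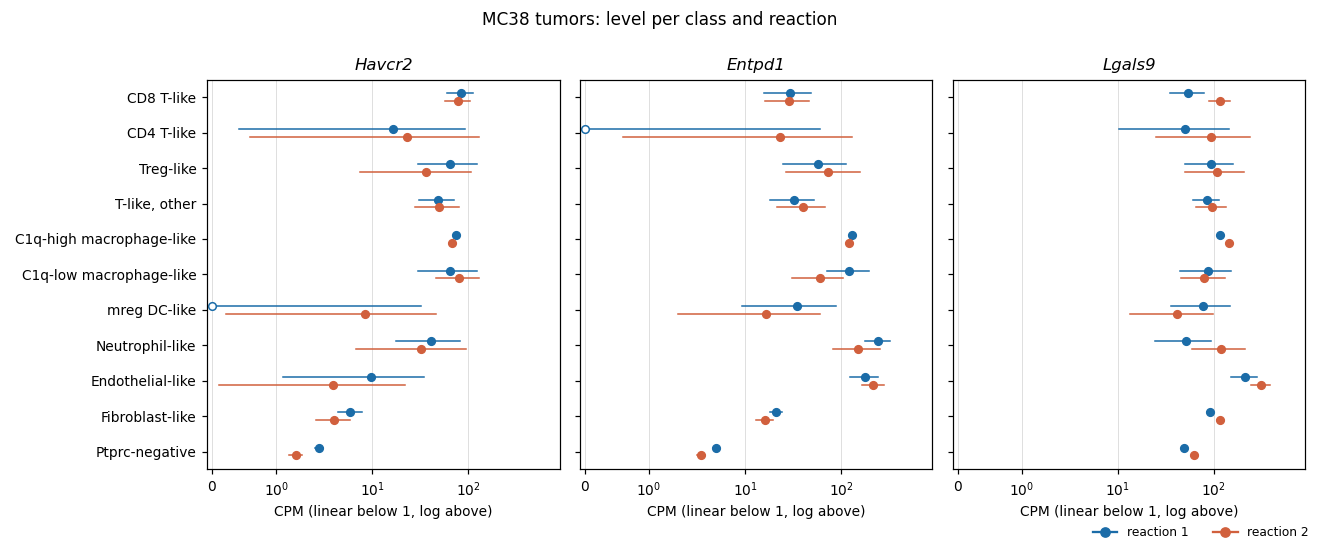
Havcr2, Entpd1 and Lgals9 in MC38 tumors, as CPM by cell class and reaction, with exact Poisson 95% intervals and an axis that is linear below 1 and logarithmic above. Over all barcodes, C1q-high macrophage-like barcodes were not told from CD8 T-like barcodes in Havcr2 and exceeded them in Entpd1 and Lgals9. Entpd1 was at 131 and 122 CPM in C1q-high macrophage-like against 29.2 and 28.6 CPM in CD8 T-like barcodes. Among CPI hashtag barcodes alone, which are not shown, Havcr2 was higher in CD8 T-like barcodes.

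RNA from other cells was present in the T cell barcodes and is given beside these results. All 11 genes of the macrophage and monocyte list were detected in CD8 T-like barcodes, which summed to 1961 and 2070 CPM, or 12.0% and 10.4% of the C1q-high macrophage-like level. Over all barcodes, Havcr2 in CD8 T-like barcodes stood at 112% and 116% of the macrophage-like level and Entpd1 at 22.2% and 23.5%. Among CPI hashtag barcodes, Entpd1 was at 21.8 and 11.1 CPM (4 and 2 UMIs) in CD8 T-like against 161 and 152 CPM in C1q-high macrophage-like barcodes. In the opposite direction, the 8 genes of the T cell list in C1q-high macrophage-like barcodes summed to 0.469% and 0.475% of the CD8 T-like level, and Tox there was at 1.21% and 1.95%, Tigit at 1.62% and 0.836% and Lag3 at 10.4% and 7.88%. The part of such RNA in these levels was not tested.

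Cd160, the gene of a glycolipid-anchored receptor of NK and CD8 T cells (chr3:96798763-96829351, minus strand), was too sparse for the test in either tissue. CD8 T-like tumor barcodes held 4 and 2 UMIs (8.35 and 3.58 CPM), and CD4 T-like and Treg-like barcodes had none. NK-like barcodes, only 8 and 15 in number, held 1 and 4 UMIs. In TDLNs, CD8 T-like barcodes with at least 3 Ccl5 UMIs held 2 and 6 (17.7 and 20.3 CPM) and those below that limit 3 and 14 (6.36 and 11.7 CPM), while Treg-like and B-like barcodes again had 0. With so few molecules these values describe the libraries and order no classes.

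Few CD8 T-like barcodes showed several of the genes together. In reactions 1 and 2, at least 1 of the 8 was detected in 113 of 216 (52.3%) and 102 of 197 (51.8%) CD8 T-like barcodes, and at least 2 in 37 of each (17.1% and 18.8%). Treg-like barcodes, which were somewhat deeper at a median of 1702 and 1445.5 UMIs, had at least 2 in 46.2% and 40%. Tox and Havcr2 met in 4 of 216 CD8 T-like barcodes in reaction 1, where 25 held Tox and 36 held Havcr2, and in 3 of 197 in reaction 2, where the counts were 18 and 29. Joint detection at this depth says little about joint expression.

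Over the 21 sums of class and reaction, the closest companions by Pearson's r were Il2rb (0.996), Pdcd1 (0.996) and Sh2d2a (0.994) for Tigit, Gstp3 (0.986), Nrgn (0.985) and Trbc2 (0.972) for Tox, and Gm57133 (0.982), Gata3 (0.977) and Cd6 (0.953) for Lag3. Havcr2 was closest to Cyth4 (0.942), Neurl3 (0.939) and Cd84 (0.935), Entpd1 to Icam1 (0.937), Vsir (0.890) and Mtmr6 (0.878), and Lgals9 to Cd81 (0.812), Pea15a (0.809) and Kdr (0.806). For Rgs16 these were Metap1 (0.910), Stimate (0.909) and Adgrl1 (0.909). Within the list, Lag3 and Tigit (0.90) and Tox and Tigit (0.89) ran closest together, and Lag3 and Entpd1 ran most apart (-0.49). The sums share libraries and differ in depth, so these values are descriptions.

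Of a list of 49 other exhaustion regulators, ligands, partners and family members of the 8 genes, 37 could be tested in MC38 tumors. In CD8 T-like sums 15 of the 37 were higher (8.89% of all genes), in CD4 T-like sums 11 (3.43%) and in Treg-like sums 10 (4.63%), and none was lower in these classes. Macrophage-like sums had calls of the list in both directions: 14 were higher and 3 lower in C1q-high sums (22.1% and 8.97% of all genes), and 10 were higher and 1 lower in C1q-low sums (10.0% and 1.80%). Pdcd1, which encodes PD-1, had 108.5 and 168 CPM in CD8 T-like against 0.810 and 1.44 CPM in C1q-high macrophage-like barcodes (adjusted p against the mean of the other classes 6.5e-12, edgeR). The partners of TIGIT on the T cell, Cd226 at 115 and 85.9 CPM and Cd96 at 41.7 and 37.6 CPM, were also higher there. On the ligand side, Nectin2 was at 76.8 and 78.1 CPM in endothelial-like barcodes, log2 4.85 ± 0.56 above the mean of the other classes. Nt5e encodes CD73, the ectoenzyme that acts after CD39, and was higher in endothelial-like (log2 3.09 ± 0.61) and C1q-high macrophage-like sums (log2 2.97 ± 0.27), as Entpd1 was.

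Whether the genes followed PD-1 within CD8 T-like cells was asked by dividing these barcodes by a Pdcd1 UMI, which 40 and 51 had and 176 and 146 lacked. Rgs16 held 265 and 120 CPM with and 73.2 and 53.7 CPM without a Pdcd1 UMI, and was the largest difference of the 6 tested (log2 1.51 ± 0.46, 2.85-fold, unadjusted p = 0.0087, adjusted p = 1.0, edgeR). Havcr2 (133 and 70.1 against 73.2 and 85.3 CPM), Tigit (96.5 and 70.1 against 37.8 and 101 CPM) and Tox (109 and 12.4 against 70.6 and 56.9 CPM) overlapped between the sets. No gene of 4674 passed the threshold (0% of all genes in either direction), of which 40 were higher and 72 lower at an unadjusted p under 0.05, and DESeq2 called none of the 6. Barcodes with a Pdcd1 UMI were deeper, at medians of 1692 and 1326 against 1263 and 1199.5 UMIs, and 1 residual degree of freedom among sums makes this a weak test.

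By the gates and hashtag calls used here, only C1q-high macrophage-like and Ptprc-negative barcodes were numerous enough under all 4 treatments to be compared. T cells were not, although the paper compares them between treatments by scRNA-Seq. In C1q-high macrophage-like barcodes, Havcr2 and Lgals9 were lower under CPI than under isotype, 2 of 3 tested genes against 11.8% of all genes. Havcr2 held 84.5 and 80.5 CPM under isotype, 27.8 and 21.3 under CPI, 102 and 83.3 under CPI with ABT-317 and 102 and 82.4 under isotype with ABT-317, so that the CPI values alone stood apart. The change with ABT-317 differed between CPI and isotype by a log2 of 1.74 ± 0.35 (adjusted p = 2.7e-04, with 6.47% of all genes called in that direction). The fall under CPI was 3.30-fold (log2 -1.72 ± 0.29, adjusted p = 9.5e-06, edgeR), and the level under CPI with ABT-317 was 3.63-fold that under CPI (log2 1.86 ± 0.31, adjusted p = 1.1e-05). In that contrast 2 of 3 genes were higher, against 8.41% of all genes.

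Lgals9 went the same way on a smaller scale, from 126 and 143 CPM under isotype to 63.9 and 73.2 under CPI (1.93-fold lower, adjusted p = 2.1e-04) and 110 and 136 under CPI with ABT-317 (1.76-fold higher than CPI, adjusted p = 0.0051). Entpd1 in the same barcodes showed no such fall, with 150 and 141 CPM under isotype and 161 and 152 under CPI (log2 0.13 ± 0.15, adjusted p = 0.57). With ABT-317 under isotype none of the 3 genes was called, and 0.674% and 0.544% of all genes were higher and lower there. The CPI sums came from 167 and 143 barcodes with 10 and 7 Havcr2 UMIs, and they were shallower than the isotype barcodes, at medians of 1890 and 1990 against 3104 and 3790 UMIs. The T cell list in them summed to 11.1 and 6.10 CPM against 2.71 and 2.61 under isotype, and the macrophage and monocyte list to 22142 and 28347 against 17801 and 21815 CPM. The neutrophil list was at 77.8 and 64.0 CPM in them against 27.0 and 18.9 under isotype. The part of depth and of these cells in the difference was not tested.

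**Figure D3:**
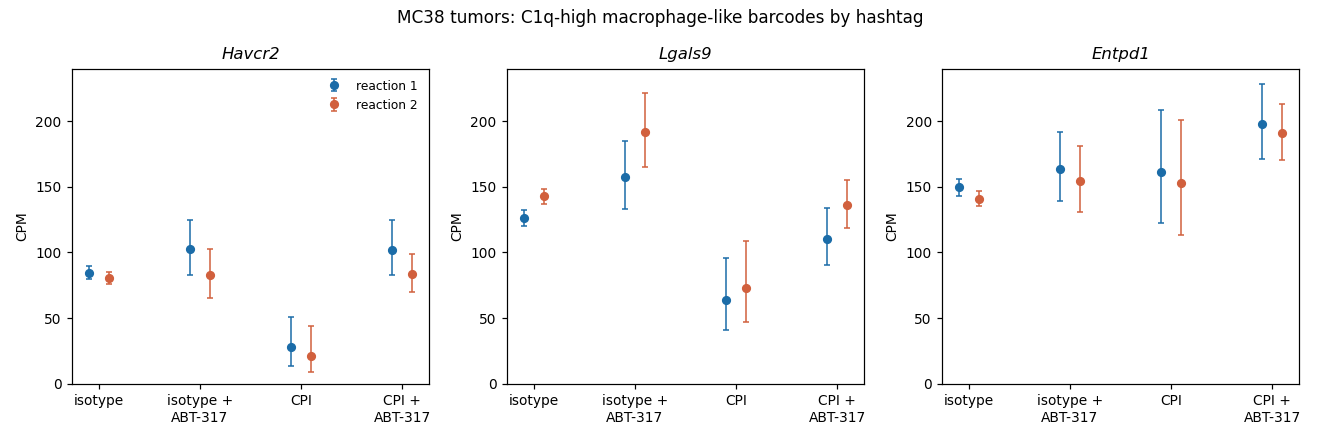
Havcr2, Lgals9 and Entpd1 in C1q-high macrophage-like barcodes of MC38 tumors by treatment hashtag and reaction, as CPM with exact Poisson 95% intervals. Havcr2 under CPI, at 27.8 and 21.3 CPM, lies below the other 3 treatments, as Lgals9 does at 63.9 and 73.2 CPM, and Entpd1 under CPI, at 161 and 152 CPM, does not lie below isotype.

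By construction, Ptprc-negative barcodes held no UMI of the T cell, endothelial or neutrophil markers, and they held only 1.15 and 0.896 CPM of the listed epithelial markers, so they are named by their rule. Rgs16 was higher in them under CPI, at 84.6 and 228 CPM (68 and 91 UMIs), than under isotype (18.8 and 20.2 CPM), CPI with ABT-317 (15.5 and 17.7 CPM) or isotype with ABT-317 (16.7 and 18.3 CPM). The difference was 5.62-fold from isotype (log2 2.49 ± 0.23, adjusted p = 2.0e-06, edgeR) and 6.48-fold from CPI with ABT-317 (adjusted p = 2.0e-06). Its change with ABT-317 differed from that under isotype by a log2 of -2.63 ± 0.26 (adjusted p = 2.6e-05, with 4.31% of all genes called in that direction). Tigit was also called in both contrasts although on 3 and 2 UMIs under CPI (3.73 and 5.01 CPM, with counting intervals of 0.770 to 10.9 and 0.607 to 18.1 CPM). Of 6 genes tested, 2 were higher under CPI than under isotype, against 8.65% of all genes.

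Entpd1 fell in Ptprc-negative barcodes with ABT-317, from 12.4 and 17.5 CPM (10 and 7 UMIs) under CPI to 1.39 and 1.74 CPM (6.45-fold, adjusted p = 0.0035, edgeR) and from 5.27 and 2.63 CPM under isotype to 1.23 and 0.626 CPM (3.94-fold, adjusted p = 5.4e-04). With Rgs16 and Tigit this made 3 of 6 genes lower under CPI with ABT-317 than under CPI, against 9.12% of all genes. Havcr2 fell under isotype with ABT-317 from 3.13 and 1.42 to 0.803 and 0.289 CPM (3.86-fold, adjusted p = 0.0021), which with Entpd1 made 2 of 6, against 7.52% of all genes. When a barcode was given the hashtag that led the next by 1 natural log unit, Entpd1 was called in neither contrast (log2 -1.57 and -1.13), Havcr2 was not called (log2 -1.60), and Tigit was too sparse for the test. The macrophage and monocyte list moved with these barcodes: it summed to 494 and 927 CPM under CPI, 375 and 215 CPM under isotype and 62.7 to 165 CPM under both treatments with ABT-317. The CPI sums held only 193 and 78 barcodes, at medians of 1060 and 2061 UMIs against 10627 and 18564 under isotype. The part of these cells and of depth in the differences was not tested.

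At the protein level, the tags of CD366 and CD223 did not separate the classes as Havcr2 and Lag3 RNA did. For CD160 the RNA was too sparse for such a comparison. CD366 took 1.23% to 1.44% of antibody UMIs across the 11 classes and both reactions, CD223 2.57% to 3.09% and CD160 1.59% to 2.18%. Per CD8 T-like barcode, CD366 had 89.6 and 89.8, CD223 193 and 194 and CD160 136 and 127 UMIs. Ptprc-negative barcodes held 80.6 and 86.7, 177 and 196, and 128 and 138. All lay above the highest isotype control of the same barcodes (22.8 and 21.97 in CD8 T-like, 18.1 and 19.5 in Ptprc-negative). The source of the Ptprc-negative level was not tested. The log2 differences of a class from the mean of the others lay between -0.10 and 0.15 for all 3 antibodies. In CD8 T-like sums CD366 was at -0.02 ± 0.02 (adjusted p = 0.69, edgeR), and in C1q-high macrophage-like sums at -0.01 ± 0.02 (adjusted p = 0.69), while Havcr2 RNA was called higher in both. The antibody to CD8a did mark CD8 T-like barcodes, with 0.459% and 0.462% of antibody UMIs against 0.247% and 0.239% in C1q-high macrophage-like barcodes (log2 0.74 ± 0.05 from the mean of the other classes). These were 29.6 and 29.7 CD8a UMIs per barcode, against up to 22.8 and 21.97 for the isotype control antibodies in the same barcodes. The antibody to CD4 took 0.186% and 0.214% of antibody UMIs in CD4 T-like barcodes against 0.0925% and 0.0892% in C1q-high macrophage-like barcodes (log2 0.81 ± 0.41 from the mean of the other classes, adjusted p = 0.18), and 0.477% in fibroblast-like barcodes of reaction 2. Its 12.1 and 11.5 UMIs per CD4 T-like barcode lay within isotype control ranges of 6.08 to 22.9 and 5.93 to 17.7. Of 33 tests on the 3 antibodies, 10 passed the threshold, 6 of them higher, at differences of at most 0.15. CD366 was called higher in endothelial-like sums (log2 0.06, 16.4% of 122 antibodies called higher), although its shares there, 1.34% and 1.31%, were not raised and the difference was -0.03 without TMM scaling, CD223 and CD160 were higher in fibroblast-like (18.0%) and Ptprc-negative sums (23.0%) and lower in mreg DC-like sums (12.3% called lower), and CD160 was higher in the remaining T-like sums (17.2%) and lower in C1q-high (18.0%) and C1q-low (19.7%) macrophage-like sums. Without TMM scaling none of the 10 passed, 9 kept their sign and CD366 in endothelial-like sums did not. The mreg DC-like values rest on 1 sum.

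**Figure D4:**
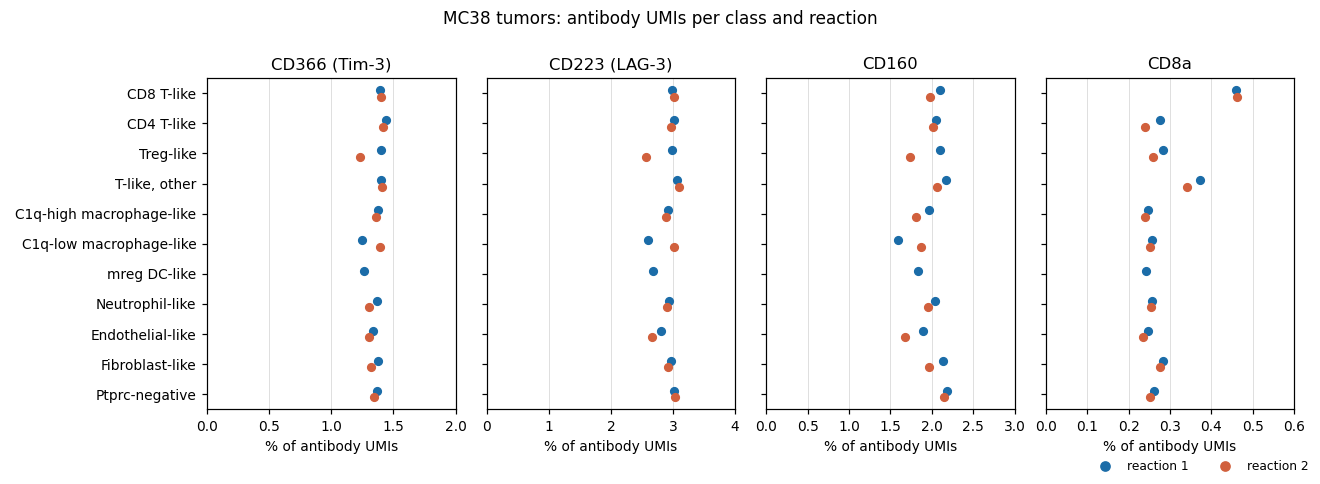
Antibodies to CD366, CD223, CD160 and CD8a as a percent of antibody UMIs in MC38 tumors, by cell class and reaction. CD366, between 1.23% and 1.44%, and the 2 other receptor antibodies stay nearly level across classes, while CD8a is raised in CD8 T-like barcodes at 0.459% and 0.462%.

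In the TDLNs of TRAMP-C2–bearing mice, Tox, Tigit and Lgals9 had enough counts for the test (edgeR, 7523 genes, 16 sums) and the remaining 5 genes did not. Treg-like barcodes were highest in Tox and Tigit, 2 of 3 genes against 2.95% of all genes, and B-like barcodes were lower in both, against 11.1%. The remaining T-like sums were also higher in 2 (2.96%) and CD4 T-like sums in 1 (1.33%), whereas 0 of 3 were called in Ccl5-low CD8 T-like (4.94%), Ccl5+ CD8 T-like (3.55%) and plasma cell-like sums (2.57%). Treg-like barcodes entered the test as 1 sum, from reaction 2, since reaction 1 had only 13 barcodes. The SEs and p-values of every Treg-like difference in the node, for Tox and Tigit alike, therefore come from the spread of the other classes, and the lone sum is assumed to vary like them. Treatments are pooled in every lymph node value.

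Tox was at 821 CPM in Treg-like barcodes of reaction 2 and 1107 in the 13 of reaction 1, then at 662 and 483 CPM in CD4 T-like barcodes. CD8 T-like barcodes had less, 314 and 270 CPM where Ccl5 was low and 194 and 217 CPM where it was not. B-like barcodes, which held 0 UMIs of the T cell list, were at 59.2 and 22.5 CPM, below every T cell class. Plasma cell-like barcodes, however, held 320 and 262 CPM (35 UMIs in all) and could not be told from Ccl5-low CD8 T-like barcodes (adjusted p = 0.79, edgeR). The T cell list summed to 444 and 466 CPM in them, a level capped by their gate, which allowed at most 1 such UMI per barcode. The class is named by its gate alone. Prdm1 had 2 and 0 UMIs in it. Tcf7 was at 320 and 175 CPM, against 297 and 247 CPM in barcodes with both T and B markers. Cd74 was at 7088 and 6706 CPM, against 7511 and 6031 CPM. The part of T cell RNA in the Tox of this class was not tested. Treg-like exceeded Ccl5-low CD8 T-like sums 2.62-fold (log2 1.39 ± 0.19, adjusted p = 3.9e-07, edgeR, 2.42% of all genes) and Ccl5+ CD8 T-like sums 3.57-fold (adjusted p = 4.9e-08, 1.62%), with its 1 sum. CD4 T-like sums exceeded them 1.76-fold (adjusted p = 0.0053, 0.306%) and 2.40-fold (adjusted p = 1.6e-04, 0.266%). The Treg-like and CD4 T-like levels were not told apart (adjusted p = 0.23). Barcodes with both T and B markers held 332, 331 and 233 CPM in reactions 1 to 3, above the B-like level.

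Tigit was also highest in Treg-like barcodes of the lymph node. They held 221 and 228 CPM, against 72.4 and 73.6 CPM in the remaining T-like, 35.3 and 57.6 CPM in Ccl5+ CD8 T-like, 33.1 and 41.3 CPM in CD4 T-like and 27.5 and 29.4 CPM in Ccl5-low CD8 T-like barcodes. Plasma cell-like barcodes, with 2 UMIs in each reaction, were at 24.7 and 58.3 CPM, within the range of these T cell classes. The single Treg-like sum stood above every other T cell class, by 2.83-fold over the remaining T-like sums (adjusted p = 0.0041, edgeR, 1.45% of all genes) to 6.86-fold over Ccl5-low CD8 T-like sums (adjusted p = 1.4e-07). CD4 T-like sums fell 5.57-fold short of the Treg-like sum in Tigit (adjusted p = 9.5e-04, 0.705% of all genes) and were not told from it in Tox, and the difference between the genes was not tested. Below the Treg-like sum, no neighboring T cell classes were told apart in Tigit. In B-like barcodes Tigit had 2 and 1 UMIs.

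Lgals9 lay between 36.9 and 132 CPM across the lymph node T, B and plasma cell-like classes of reactions 1 and 2, and no class was called for it. Havcr2 was close to absent from CD8 T-like barcodes of the node. There was 1 Havcr2 UMI in each of reactions 1 and 2 where Ccl5 was low (2.12 and 0.839 CPM) and none where it was not, which allows up to 26.5 and 10.2 CPM at 3 counts. In reaction 2, 5 Havcr2 UMIs fell in Treg-like barcodes (30.0 CPM). Entpd1 was likewise at 2.12 and 2.52 CPM in Ccl5-low CD8 T-like barcodes, and had 5 UMIs in the B-like barcodes of each reaction (17.4 and 14.1 CPM).

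Lag3 held 4.24 and 6.71 CPM in Ccl5-low CD8 T-like barcodes and 1 and 5 UMIs in Treg-like barcodes (18.5 and 30.0 CPM). Rgs16 had 6 and 4 UMIs in Treg-like barcodes (111 and 24.0 CPM) and none in B-like barcodes. Values of the MC38 tumor are set beside these without a comparison, since the matrices of the tissues hold different gene rows: in tumor CD8 T-like barcodes, Lag3 was at 16.7 and 17.9 CPM, Rgs16 at 106 and 82.3 CPM, Havcr2 at 83.5 and 78.7 CPM and Tox at 77.2 and 37.6 CPM. Of the list of 49 related genes, 37 could be tested in the node, and in the 1 Treg-like sum 12 were higher (2.95% of all genes) and 2, H2-Ab1 and Cd74 of MHC class II presentation, lower (0.625%). Among the former were Tnfrsf9 (log2 3.67 ± 0.37), which encodes the costimulatory receptor 4-1BB, and Maf (log2 3.24 ± 0.29), a transcription factor of T cell differentiation.

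**Figure D5:**
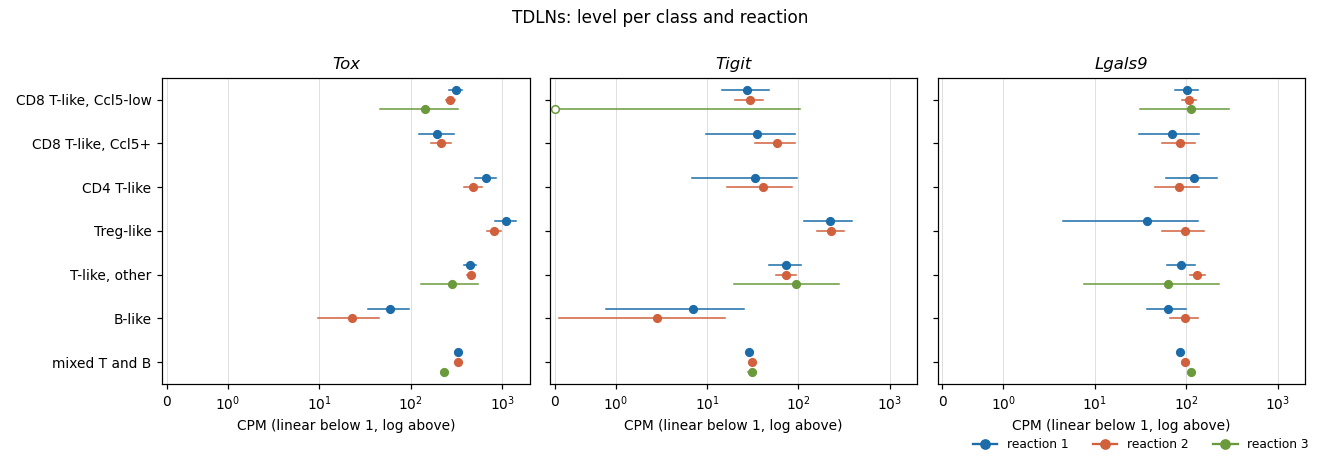
Tox, Tigit and Lgals9 in TDLNs by cell class and reaction, as CPM with exact Poisson 95% intervals on an axis that is linear below 1 and logarithmic above. Treg-like barcodes lie highest for Tox (821 CPM in reaction 2) and Tigit (228 CPM), B-like barcodes lowest, and Lgals9 is spread without order.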

How the data were processed

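Droplet scRNA-Seq (10x 5' version 2, 60000 cells loaded per reaction) was done on 3 TDLN and 2 MC38 tumor reactions. The authors deposited raw UMI counts per gene, or per antibody tag, and barcode, without normalization. The version in the file headers is Cell Ranger 7.1.0 (TDLNs) or, in MC38 files, 8.0.1, and the submitters' processing notes list Cell Ranger 3.1.0 with GRCm38. The study's methods give GRCm38 for all scRNA-Seq data. The major versions of Cell Ranger they name include that of the TDLN headers but not that of the MC38 headers. MC38 matrices hold other gene rows than TDLN matrices, so tissues were not compared by test, and coordinates are those of GRCm38.

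Barcodes with at least 200 genes and under 10% mitochondrial UMIs were kept. The upper limit of 2500 genes in the study's methods was used as an alternative only, since it would remove 18543 and 13650 MC38 barcodes. Classes were gated on marker UMIs without the 8 genes and without 10 listed markers that were widespread, Ebf1 among them (TDLN: at least 10 T or 8 B marker UMIs and 0 of the other gating markers, or up to 1 in plasma cell-like barcodes; MC38: for example at least 5 T or 60 macrophage marker UMIs per 10000), and C1q-high means at least 10 C1q UMIs per 10000. CD8 T-like barcodes held Cd8a or Cd8b1 without Cd4 or Foxp3, and T-like barcodes that fell in none of the CD8, CD4 or Treg sets are called the remaining T-like barcodes. Treg-like barcodes held neither Cd8a nor Cd8b1, and either a Foxp3 UMI or more than 1 gene of the Treg marker list. They therefore need not hold Foxp3. Ptprc-negative barcodes held no UMI of Ptprc or of the gating markers, apart from macrophage and fibroblast markers below a limit.

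Counts were summed per class and reaction (at least 20 barcodes, or 10 per treatment) and tested with edgeR 4.0.16 (TMM, filterByExpr, quasi-likelihood test, R 4.3.3) with the reaction as a term, Benjamini-Hochberg adjustment over all genes tested and a threshold of 0.05. The reaction number pairs sums by construction, because classes of a reaction share a library. Fold changes are from the fit, which kept the default prior count of edgeR, and are printed only where neither class was at 0. A prior count of 2 was used for values of log2 CPM alone. Antibody counts were tested in the same way over 122 antibodies. CPM values divide UMIs by all gene UMIs of a class, with exact Poisson 95% intervals that cover counting error only, and a count of 0 allows 3 counts. Hashtags called each barcode's treatment where exactly 1 of the key was present. The procedure was tested on simulated data. DESeq2 1.42.0, a stricter gate, other filters and hashtag rules, fits without the reaction term and fits leaving out a reaction were alternatives. Leaving out a reaction left no residual degrees of freedom, apart from TDLN reaction 3. Those values are differences of mean log2 CPM with a prior count of 2, not coefficients of a fit. Python 3.11.15, numpy 2.4.6, pandas 2.3.3 and scipy 1.17.1 were used.

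All 8 genes are named, and of related genes at most 4 per direction and comparison with the largest difference among those called. The 8 genes and the lists of markers and related genes were chosen with earlier results of these data known. Coordinates are from GENCODE vM21, and the promoter table held 6 of the 8 genes.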

Additional observations from a re-analysis of the deposited data

Results flagged for a closer look

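In 3 instances the difference made by ABT-317 was not the same under CPI as under isotype, by a test of the interaction in edgeR. In C1q-high macrophage-like barcodes of MC38 tumors, the log2 change of Havcr2 with ABT-317 was higher under CPI by 1.74 ± 0.35 SE (adjusted p = 2.7e-04), where 6.47% of all genes were called in that direction. In Ptprc-negative barcodes, the change of Rgs16 was lower under CPI, at -2.63 ± 0.26 (adjusted p = 2.6e-05), and that of Tigit was lower at -4.88 ± 1.28 (adjusted p = 0.021), where 4.31% of all genes were called in that direction. The Tigit value rests on 3 and 2 UMIs under CPI, and all 3 rest on CPI sums of 78 to 193 barcodes.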

How the results depend on the processing

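In MC38 tumors 31 of 77 differences between classes were called, and the other settings gave 45 of 77 (DESeq2), 32 of 70 (fewer than 2500 genes), 30 of 77 (no replicate block), 28 of 88 (no filter on low counts), 27 of 70 (exactly 1 hashtag), 22 of 77 (stricter gate) and 21 of 42 (CPI hashtag only, with 6 genes, chosen after seeing the data). Entpd1 in fibroblast-like sums, -1.09 on the log2 scale, reversed to 0.041 under the stricter gate, 0.25 with exactly 1 hashtag and 0.28 with the CPI hashtag only, and Lgals9 in C1q-high macrophage-like sums, 0.65, reversed to -0.26 with the CPI hashtag only. Of the main calls that could be refitted with the CPI hashtag only, 13 stayed called, 6 were no longer called and these 2 reversed. The cause of these changes was not tested. In TDLNs the 7 calls stayed between 6 and 8. Treatment calls, 11 of 27, became 7 with fewer than 2500 genes per barcode and 7 with the hashtag that leads by 1 log unit, and 9 with no replicate block. Antibody calls, 10 of 33, became 2 with no replicate block, a fit chosen after seeing the data, and 0 without TMM. No call was gained by Pdcd1 status under any setting. Of 49 called differences refitted without 1 reaction, 0 reversed, 29 moved by over 1.5 times as a fold, and 10 moved by over 1.5 times as a log2 difference. Among the latter, besides Tox and Lag3 in CD8 T-like sums, were Lag3 (4.43 to 2.02) and Havcr2 (2.20 to 1.35) in the remaining T-like sums without reaction 1, Rgs16 in endothelial-like sums (1.83 to 1.01) and Entpd1 in fibroblast-like sums (-1.09 to -0.37) without reaction 2, Entpd1 in C1q-low macrophage-like sums without either (1.29 to 0.73 and 2.28), and, in TDLNs without reaction 2, Tigit in B-like (-3.59 to -2.35) and remaining T-like sums (1.07 to 1.71). The tenth was Rgs16 in C1q-low macrophage-like sums, which had 0 UMIs, so no size is given. Called values that moved only as a fold included Havcr2 without reaction 1 in CD8 T-like (3.1 to 2.09) and C1q-high macrophage-like sums (3.08 to 2.06), and Rgs16 in Ptprc-negative sums, from CPI against isotype (2.49, then 3.13 without reaction 1 and 1.88 without reaction 2) and from CPI with ABT-317 against CPI (-2.70, then -3.29 and -2.11). Leaving out reaction 1 also removed the mreg DC-like class. With 1 MC38 reaction these are values with no test. Except without TDLN reaction 3, each refit was a difference of mean log2 CPM with a prior count of 2, another estimator than the main fit. Tigit in Treg-like tumor sums, for example, fell whichever reaction was left out (8.49 to 6.55 and 6.59). The moves hold the change of estimator as well as that of reaction, and the part of each was not tested.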
